A study of Mus musculus with 6 samples.

Results

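Embryonic retinal ganglion cells were taken from single-cell RNA sequencing of the mouse neurosensory retina at embryonic day 14 (E14) and embryonic day 16 (E16). All mice were wild type (C57BL/6J in the methods of the study), with no transgene and no treatment in any group, and the retinas of several animals were pooled into 1 library per age. Papain-dissociated live cells were sorted by exclusion of DAPI and captured on the 10x Genomics platform, in which each transcript molecule is counted by a unique molecular identifier (UMI). A cell was a member when it held 1 or more UMI of at least 3 of the 6 genes *Pou4f1*, *Pou4f2*, *Nefl*, *Nefm*, *Sncg* and *Rbpms*, no UMI of *Tfap2b* (an amacrine cell factor) or *Mki67* (a proliferation gene), and UMIs of at most 1 of *Dlx1*, *Dlx2* and *Gal*. Of the cells with 300 to 6000 genes and at most 15% mitochondrial UMIs, 2393 of 15553 met this rule at E14 and 955 of 2714 at E16, which gave 3348 of 18267 in the embryonic libraries and of 57690 kept cells in all 6 libraries. The members were selected on these measured genes, so comparisons of members with other cells are descriptions without a test, and 1 library per age allows no test between ages. Intervals are exact 95% intervals (Clopper-Pearson for shares, Poisson for levels) and cover counting error only.

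Retinal ganglion cells are the first neurons born in the retina and its only output to the brain. Their precursors leave the cell cycle under the transcription factor *Atoh7*, which opens a programme run by *Pou4f2* and *Isl1*, and their axons grow across the inner retina into the optic nerve, to cross or not at the chiasm. Around and after birth many ganglion cells die, and the survivors split into many subtypes that differ in dendrites, targets and light responses.

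Members made up 15.4% (14.8 to 16.0) of kept cells at E14 and 35.2% (33.4 to 37.0) at E16. These shares stand on different depth limits, since the lowest UMI count of a kept cell was 500 at E14 and 4566 at E16. Among E14 cells with at least 4566 UMIs, 1983 of 9455 were members, a share of 21.0% (20.2 to 21.8). The exclusions removed 1239 of 3632 cells with 3 or more markers at E14 and 653 of 1608 at E16. After birth the same rule took 231 of 10407 kept cells at P0, 3 of 12303 and 370 of 3113 in the P3 libraries (replicates 1 and 2) and 2 of 13600 at P6, so the pair of P3 libraries differed widely in this cell type. The P3 pair is the only measure here of how far libraries of 1 age can differ.

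The libraries held 107793173 UMIs in 15928 barcodes at E14 and 43889333 UMIs in 2973 barcodes at E16, and shared 1 barcode, which belonged to no member. Members had a median of 6409 UMIs at E14 and 5362 at E16, against 5061.5 and 10445 in the other kept cells, so members were the deeper cells at E14 and the shallower cells at E16. A doublet caller based on simulated doublets marked 129 members (5.39%) at E14 and 13 (1.36%) at E16. It marked 54.5% of the E14 cells that had 3 markers but were excluded for *Mki67*, and 8.13% of such cells at E16. The E16 and P3 replicate 2 files use an older gene list than the other 4, and levels below are UMIs per 1000000 (CPM) over the 27040 Ensembl identifiers in both lists, summed over the cells of a group.

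The 6 markers that chose the members were detected unequally within them. After each cell was thinned to 2000 UMIs, which left 2288 members at E14 and 955 at E16, *Nefl*, encoding the light neurofilament chain, was seen in 91.3% of members at E14 and 90.2% at E16. Its medium-chain partner *Nefm* was seen in 93.4% and 63.1%. For *Sncg* (gamma-synuclein, abundant in ganglion cell axons) the shares were 87.1% and 99.3%, and for *Rbpms*, which encodes an RNA-binding protein used as a ganglion cell marker, 55.2% and 62.6%. *Pou4f1*, a POU factor of most mature ganglion cells, separated the ages most. It was seen in 17.3% (15.7 to 18.9) of members at E14 and 61.9% (58.7 to 65.0) at E16, while *Pou4f2*, its earlier relative, was seen in 21.7% (20.1 to 23.5) and 12.8% (10.7 to 15.1).

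Without thinning, *Pou4f1* was seen in 39.2% of members at E14 and 79.8% at E16, and *Pou4f2* in 45.9% and 34.5%. In thinned cycling cells of the same libraries (a UMI of both *Mki67* and *Top2a* and under 3 markers, 5876 at E14 and 703 at E16, median 6654 and 13843 UMIs before thinning), the *Pou4f1* share was 0.313% and 1.42% and the *Pou4f2* share 0.940% and 0.569%. The highest share of a marker in cycling cells was 14.9%, for *Sncg* at E16. The rule sets these shares high in members and low in cycling cells, so their difference is no result.

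The markers are encoded on chromosomes 14 and 8 in the GENCODE vM21 annotation of mm10, the build named in the labels. *Pou4f1* spans chr14:104461676-104467999 on the minus strand, *Sncg* chr14:34370274-34374789 on the minus strand, *Nefl* chr14:68083863-68089095 on the plus strand and *Nefm* chr14:68082590-68124846 on the minus strand. The annotated spans of *Nefl* and *Nefm* overlap on opposite strands. *Pou4f2* spans chr8:78433010-78436645 and *Rbpms* chr8:33782643-33929863, both on the minus strand. All are protein-coding genes.

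The label was checked with genes the rule did not name. *Isl1*, a LIM factor that acts with *Pou4f2*, stood at 900 CPM (885 to 915) in members at E14 and 111 CPM in other kept cells, and at 586 CPM (567 to 606) and 108 CPM at E16. *Slc17a6*, which encodes the vesicular glutamate transporter of ganglion cells, stood at 46.2 against 8.35 CPM and 62.9 against 9.82 CPM. Its levels were low but in the same order in both libraries. Of the 20 genes listed for ganglion cell identity, 17 were measured at 10 CPM or more in members or other cells of each library, and 16 of those were 2-fold or more higher in members of both. The median log2 ratio of the list was 2.53 at E14 and 2.66 at E16, against -0.03 and 0.07 over all 8169 genes measured. A gene under 10 CPM in other cells was measured only through its level in members, so nothing is read from this count or median.

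Cells just outside the rule differed from those just inside. Among cells without the excluded genes, those with exactly 2 markers (450 at E14, 42 at E16) held 316 and 401 CPM of *Gap43*, a growth cone protein gene, and those with exactly 3 (308 and 44) held 1940 and 2386 CPM. With 4 markers the level was 4594 and 3958 CPM, and with 6 it was 5062 and 4696 CPM. *Isl1* at E14 stood at 21.4, 63.7 and 261 CPM with 0, 1 and 2 markers. It reached 931 CPM with 3 and stayed between 886 and 918 CPM above that. Its level thus rose through the cells outside the rule and levelled off from 3 markers. At E16 *Isl1* stood at 70.1 CPM with 2 markers, 246 with 3 and 628 with 4. Conversely the progenitor gene *Sfrp2*, a secreted Wnt modulator, stood at 719 CPM with 2 markers at E14, 317 with 3 and 71.0 with 4. Cells with exactly 3 markers thus held intermediate levels of *Gap43* and *Sfrp2* at both ages, and they were 308 of 2393 members at E14 and 44 of 955 at E16. Cells with 3 or more markers that were left out only for a pair among *Dlx1*, *Dlx2* and *Gal* (309 and 52) held 4092 and 4198 CPM of *Gap43* and 65.3 and 84.1 CPM of *Mstn*, close to the members' levels given below, so this exclusion removed cells with a like profile for these genes.

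**Figure D1:**
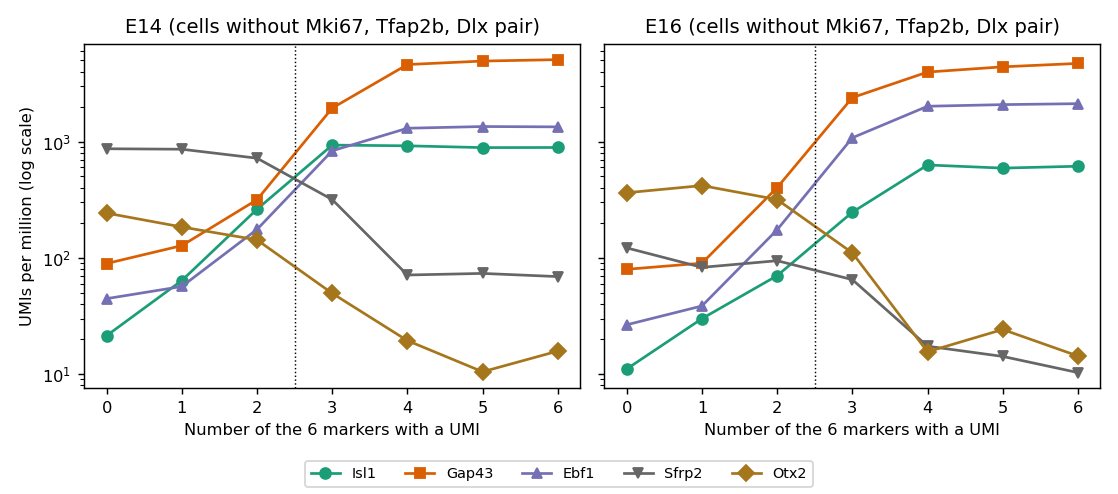
Level of 5 genes outside the rule (CPM, log scale) by the number of the 6 markers with a UMI, in E14 and E16 cells without the excluded genes; the dotted line is the limit of the rule. *Isl1*, *Gap43* and *Ebf1* lie higher to the right of the line and *Sfrp2* and *Otx2* lower, and cells with exactly 3 markers lie between, except for *Isl1* at E14.

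Of the 8169 genes measured, 989 (12.1%) were 2-fold or more higher in members of both libraries and 775 (9.49%) were 2-fold or more lower. These counts belong to the contrast that the rule used, so the shares of lists below are set beside them as a description only. A gene under 10 CPM in other cells enters a list count only through its level in members. Named here are leaders among the 25 genes with the largest ratio in the weaker library. The leading gene was *Mstn*, encoding myostatin, a secreted growth inhibitor of the TGF-beta family best known from muscle. It stood at 69.0 CPM (64.9 to 73.2) in members and 5.58 CPM in other kept cells at E14, and at 87.4 CPM (80.2 to 95) and 8.30 CPM at E16. At E14 *Mstn* was at 0.694 CPM in cells with under 2 markers and 0.507 CPM in those with exactly 2 and no excluded genes. Its level in other kept cells thus lay mostly outside both sets. Cells with 3 or more markers left out only for a pair among *Dlx1*, *Dlx2* and *Gal* held 65.3 CPM.

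Several leaders are transcription factors. *Myt1l*, a zinc finger factor that represses non-neuronal genes, stood at 118 CPM in members and 10.6 CPM in other kept cells at E14, and at 151 and 17.0 CPM at E16. The LIM-only cofactor *Lmo2* stood at 109 against 9.97 CPM and 71.4 against 7.35 CPM. Between the ages, the level in members was higher at E16 for *Myt1l* and lower for *Lmo2*.

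Other leaders serve excitability, secretion and growth. *Scn9a*, a voltage-gated sodium channel gene, stood at 77.1 CPM in members and 6.96 in other kept cells at E14, and at 139 and 15 at E16. *Syt4*, a synaptotagmin of dense-core vesicles, stood at 222 against 19.7 CPM and 555 against 61.1 CPM. *Nrn1*, which encodes neuritin, stood at 219 against 18.5 CPM and 262 against 31.8 CPM, and *Nell2*, encoding a secreted guidance glycoprotein, at 112 against 11.0 CPM and 154 against 19.2 CPM. The microtubule protein gene *Mapt* (tau) stood at 763 against 71.7 CPM and 1117 against 143 CPM.

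Among 22 listed ganglion cell factors 18 were measured, 11 were higher in members of both libraries and 1 was lower (medians 2.24 and 1.31, log2). *Ebf1*, a helix-loop-helix factor downstream of *Pou4f2*, reached 1288 CPM in members against 124 CPM in other cells at E14 and 2027 against 279 CPM at E16. *Ebf3* stood at 356 against 38.6 CPM and 178 against 31.8 CPM. The Krüppel-like factor *Klf7*, which promotes axon growth, stood at 585 against 90.1 CPM and 757 against 142 CPM. *Sox4* and *Sox11*, broad factors of young neurons, did not reach 2-fold in both libraries. The 1 lower gene was *Lhx2*, a progenitor factor that members held at 20.7 CPM and other cells at 185 CPM at E14.

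Growth cone and cytoskeleton genes were higher in members almost throughout. Of 24 listed, 23 were measured, 20 were higher in members of both libraries and none was lower (medians 2.54 and 2.21, log2). Their summed level was 56552 CPM in members and 13231 CPM in other kept cells at E14, and 47106 and 12576 CPM at E16. *Tuba1a*, an embryonic alpha-tubulin gene, stood at 12219 against 3025 CPM at E14 and 7993 against 2294 CPM at E16. *Gap43* stood at 4596 CPM (417 in other cells) and 4301 CPM (529). The 3 measured genes outside the 2-fold count included *Marcks*, whose level was 1121 CPM in members and 1214 CPM in other cells at E14.

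Guidance receptors decide how growth cones read the retina and the chiasm. Of 30 listed, 18 were measured, 7 were higher in both libraries and 2 lower (medians 0.81 and 0.52, log2). *L1cam*, an adhesion molecule of retinal axons, stood at 139 CPM against 14.9 at E14 and 163 against 26.7 at E16, and *Nrp1*, a semaphorin and VEGF receptor on crossing axons, at 103 against 9.87 and 118 against 22.9. The Slit receptor gene *Robo2* stood at 164 against 75.3 CPM and 147 against 93.1 CPM, so its ratio was below 2-fold at E16. *Unc5c*, a repulsive netrin receptor gene, stood at 37.3 against 8.39 CPM and 43.5 against 9.90 CPM. The 2 lower genes were *Ptch1*, the Hedgehog receptor, at 17.2 against 41.1 CPM at E14, and *Epha3*, an ephrin receptor, at 1.92 against 13.0 CPM.

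Of 16 listed guidance ligands, 11 were measured, 4 higher in both libraries and 1 lower. *Sema3a* and *Sema6d* were measured only through members. *Sema3a* stood at 36.2 against 3.92 CPM at E14 and 33.2 against 4.76 CPM at E16, and *Sema6d*, which takes part in midline crossing, at 34.0 against 4.59 and 27.5 against 5.56 CPM. Among secreted signals 9 of 13 were measured, 4 higher and none lower. *Shh*, the ganglion cell signal that keeps progenitors dividing, was below the 10 CPM limit at E16, with 12.2 CPM in members and 1.12 CPM in other cells at E14 and 7.99 and 0.837 CPM at E16. After thinning, *Shh* was seen in 2.58% of members at E14 and 1.57% at E16, and in 0.0174% and 0 of the cycling cells.

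Genes of excitability and transmission were higher in members. Of 17 synaptic genes 16 were measured, 12 were higher and none lower in both libraries (medians 2.35 and 1.83, log2). Of 15 transmitter receptor genes 6 were measured and 6 were higher, and of 16 ion channel genes 11 were measured and 8 were higher. A gene under 10 CPM in other cells enters these counts only through its level in members, as most of the channel genes and 3 of the 6 receptor genes did at E14, so nothing is read from the counts. *Chrna3*, a nicotinic receptor subunit gene, stood at 106 against 31.0 CPM at E14 and 57.2 against 23.4 CPM at E16, and the glutamate receptor gene *Gria2* at 39.9 against 10.2 and 57.8 against 14.9 CPM.

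Genes of the preceding state were lower. Of 16 listed progenitor genes 15 were measured and 14 were 2-fold or more lower in members of both libraries, and 12 of 14 measured neurogenic genes were lower and none higher. *Ccnd1*, a cyclin of retinal progenitors, stood at 291 against 2940 CPM and 311 against 1804 CPM. *Neurog2*, a proneural factor, stood at 11.6 against 125 CPM and 24.8 against 149 CPM. The exception among progenitor genes was *Vim*, encoding vimentin, at 716 against 711 CPM at E14 and 133 against 205 CPM at E16.

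Markers of other cell types in members were as follows. The 11 photoreceptor genes summed to 92.6 CPM at E14 and 184 CPM at E16, against 262 and 819 CPM in other cells, with 5 of 6 measured genes lower. *Rxrg*, a retinoid receptor gene shared by cones and ganglion cells, was the exception at 43.3 against 8.35 CPM and 96.5 against 25.2 CPM. The 12 amacrine genes summed to 80.2 and 142 CPM against 427 and 493 CPM, and *Ptf1a*, which defines the amacrine and horizontal lineage, stood at 2.30 and 3.2 CPM. The horizontal cell factor *Lhx1* stood at 0.192 and 0.320 CPM, although *Onecut2*, shared by both cell types, held 309 and 123 CPM. Bipolar and Müller genes summed to 103 and 124 CPM, vascular genes to 22.7 and 20.8 CPM, and microglia, astrocyte and pigment lists to at most 6.07 CPM each. The part that other cells' RNA has in the members' low levels was not tested.

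**Figure D2:**
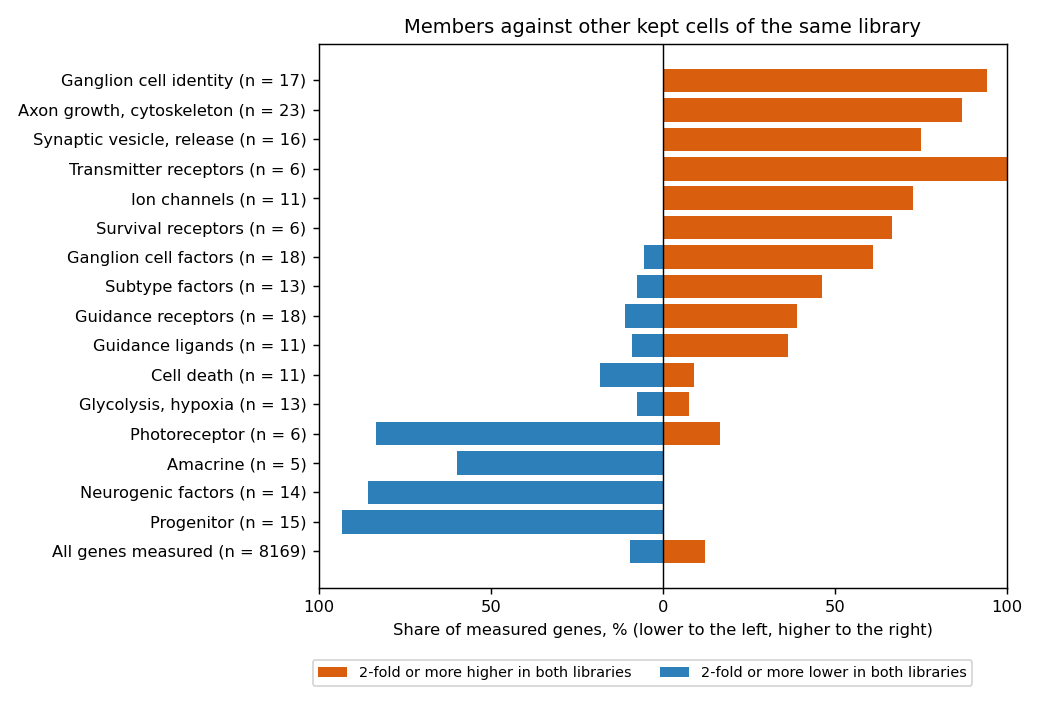
Share of the measured genes of each list (percent, n beside the name) that were 2-fold or more higher (right) or lower (left) in members than in other kept cells of both libraries. Ganglion cell identity, axon growth and synaptic lists extend to the right and progenitor and neurogenic lists to the left, while over all 8169 genes 12.1% were higher and 9.49% lower.

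Between the ages, 8520 genes were measured at 10 CPM or more in members of at least 1 library. Of these, 636 (7.46%) were 2-fold or more higher at E16 and 872 (10.2%) were 2-fold or more lower. Which direction held more genes depended on the scaling, since 823 were higher and 779 lower in CPM taken without mitochondrial, ribosomal and haemoglobin genes. Age, gene list and library differ together between these samples and cannot be told apart from E14 and E16 alone. In cycling cells of all 6 libraries, 817 genes split by gene list, with both libraries on the older list 2-fold or more above or below all 4 on the newer one and at least 10 CPM on the higher side. Such genes made up 88 (13.8%) of the 636 and 324 (37.2%) of the 872, and 19 of the 30 genes with the largest ratios. *Rnasek*, encoding a ribonuclease, is 1 of them. It stood at 290 CPM at E14, 0 UMIs at E16 (upper limit 0.589 CPM), 309 CPM at P0 and 0.522 CPM in P3 replicate 2. *Sh3bp1* stood at 0.192, 120, 0.290 and 176 CPM in the same order. Without the genes that split by list, 548 genes were higher and 548 lower of 7898 (6.94% each way), and the genes below are from that set unless stated. They were chosen after their values had been seen. The limit of 10 CPM leaves out genes that split at lower levels, as *Rgs4* (4.42 and 4.17 CPM in cycling cells on the older list, at most 0.439 CPM on the newer), *Isl2* (8.84 and 4.66, at most 1.17), *Igf1* (1.30 and 0.626, at most 0.180), *Thy1* (0.520 and 2.92, at most 0.236) and *Olfm2* (0.347 and 0.417, at least 1.49) did. *Pou4f1* in cycling cells stood at 4.75 (E16) and 5.27 CPM (P3 replicate 2) on the older list and 1.87 (E14) and 1.37 CPM (P0) on the newer. For these 6 genes a part of the gene list in the values below cannot be told apart from age.

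For these genes the level in cells meeting the rule at P0 (newer list) and P3 replicate 2 (older list) is given beside E14 and E16. *Pou4f1* itself stood at 116 CPM (111 to 122) at E14, 677 (657 to 698) at E16, 597 (571 to 623) at P0 and 825 (785 to 866) at P3. *Isl2*, a LIM factor of crossing ganglion cells, stood at 14.0 CPM (12.2 to 16.0), 116 (108 to 125), 57.8 (50 to 66.4) and 68.4 (57.2 to 81.1). Both lay lowest at E14, also against P0 on the same gene list.

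*Thy1*, a surface glycoprotein gene that marks mature ganglion cells, was nearly absent at E14, with 6 UMIs in 2393 members or 0.384 CPM (0.141 to 0.836). It stood at 51.1 CPM (45.7 to 57.0) at E16, 156 (143 to 169) at P0 and 656 (620 to 693) at P3. *Pcp4*, a calmodulin regulator gene, followed the same order at 1.60, 70.6, 196 and 2807 CPM. The brain non-coding RNA *Snhg11* stood at 208 CPM (201 to 215), 1054, 1222 and 3932 CPM. *Sncb* (beta-synuclein) stood at 8.003, 73.6, 121 and 581 CPM. In these 4 genes the level was higher at each later age. The steps from E14 to E16 and from P0 to P3 replicate 2 both passed from the newer gene list to the older. In cells with under 2 markers, the log2 ratio of P3 replicate 2 to replicate 1 was 6.34 for *Thy1* and 3.55 for *Pcp4*. For *Sncb* it was 1.85 and for *Snhg11* 1.26. A part of gene list and library in these steps cannot be told apart from age. In cells with under 2 markers *Sncb* kept this order, at 1.89, 13.8, 43.7 and 112 CPM, so its rise was not limited to members. *Thy1*, *Pcp4* and *Snhg11* did not keep the order in those cells.

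Other genes higher at E16 were not higher at each later age. *Rgs4*, a regulator of G-protein signalling, stood at 16.5, 246, 127 and 422 CPM. *Synpr*, encoding the vesicle protein synaptoporin, stood at 2.88, 91.2, 29.6 and 129 CPM, so both libraries on the older list lay above P0. *Igf1*, the insulin-like growth factor gene, stood at 22.4 CPM (20.1 to 24.9), 128 (119 to 137), 98.96 and 303 CPM. *Kctd12*, a GABA-B receptor auxiliary subunit gene, and *Cpne4*, a calcium-binding protein gene, stood at 6.98 and 2.88 CPM at E14, 127 and 70.9 CPM at E16, 217 and 163 CPM at P0 and 198 and 147 CPM at P3. In cells with under 2 markers *Rgs4* stood at 0.538 CPM at E14 and 4.54 at E16, and *Igf1* at 0.243 and 1.43. Both were thus also higher at E16 in those cells, at low levels, while *Kctd12* differed little there (3.52 and 4.07 CPM).

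The lowest ratio of E16 to E14 outside the split genes was that of *Atoh7*, at 476 CPM (465 to 487) in members at E14 and 2.40 (1.34 to 3.95) at E16. P0 members held 16.5 CPM (12.5 to 21.4) and P3 members no UMI. Cycling cells showed the same contrast, with 1142 CPM at E14 against 6.50 CPM at E16, and with 122 CPM at P0, 3.14 CPM at P6 and 13.8 and 0.209 CPM for P3 (replicates 1 and 2). Both libraries on the older list lay below the P0 value in cycling cells, and a part of the gene list in the low E16 level of *Atoh7* cannot be told apart from age. *Dcc*, the netrin receptor gene that guides axons into the optic nerve, shared this pattern with 100 CPM (95.1 to 105) at E14, 3.195 at E16, 34.5 at P0 and 4.18 at P3, and so did *Olfm2* with 108, 2.72, 147 and 2.09 CPM.

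Other genes were lower at E16 and at P0 alike. *Irx3*, an Iroquois factor, stood at 200 CPM (193 to 207), 56.9 (51.1 to 63.1), 52.8 and 26.6 CPM. *Onecut1*, a factor of early retinal neurons, stood at 93.2 CPM (88.5 to 98.1), 9.59, 12.2 and 9.92 CPM. *Sst*, the somatostatin gene, stood at 197 CPM (190 to 204), 39.0 (34.2 to 44.2), 4.06 and 0 CPM (upper limit 1.93 CPM). *Crabp1*, a retinoic acid binding protein gene, stood at 1927, 222, 676 and 75.7 CPM, and *Nefm* at 2660, 582, 986 and 436 CPM. In both of these last genes P0 lay between E14 and E16.

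Not all ganglion cell genes separated the ages. *Rbpms* stood at 468 CPM (457 to 479) at E14 and 459 (442 to 476) at E16, and *Gap43* and *Stmn3* had log2 ratios of E16 to E14 of -0.10 and -0.08. *Isl1* stood at 900, 586, 528 and 223 CPM, and *Pou4f2* at 128 (122 to 133), 80.0 (73.2 to 87.4), 95.8 and 126 CPM. *Pou4f3*, the POU factor that follows *Pou4f2*, stood at 25.9, 81.0, 104 and 96.6 CPM. The 3 POU4 genes therefore did not share 1 order across ages.

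**Figure D3:**
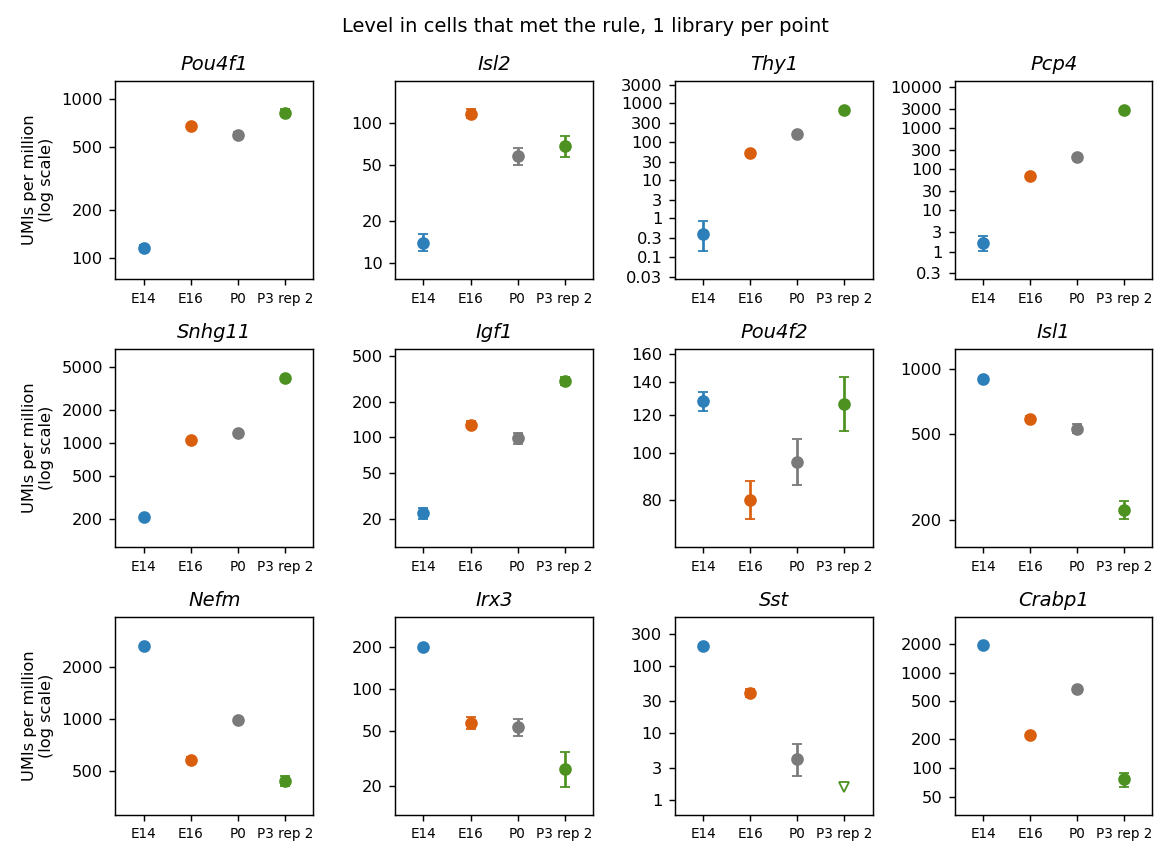
Level of 12 genes (CPM, log scale) in cells that met the rule, with 1 library per point for E14, E16, P0 and the second P3 replicate. Bars are exact 95% Poisson intervals, and an open triangle is the level of 3 counts, set in place of 0 UMIs. *Pou4f1*, *Isl2*, *Thy1*, *Pcp4*, *Snhg11* and *Igf1* lie lowest at E14 and *Isl1*, *Nefm*, *Irx3*, *Sst* and *Crabp1* highest at E14.

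Subtype factors give ganglion cell types their later identity. Of 23 listed 16 were measured. Of these, 8 were 2-fold or more higher at E16 and 3 lower, beside 7.46% and 10.2% over all genes. The median log2 ratio was 0.94, against 0.37 in cells with under 2 markers and -0.08 over all genes. A gene under 10 CPM at E14, as *Foxp2* and *Bcl11b* were, was measured only through E16, so nothing is read from the count or median. *Foxp2* and *Bcl11b*, factors of particular ganglion cell types, stood at 3.46 and 5.70 CPM at E14, 28.3 and 41.5 at E16 and 37.7 and 59.8 at P0. *Eomes* (Tbr2), needed by melanopsin ganglion cells, stood at 23.2 CPM at E14 and 61.5 at E16, and *Tbx20* at 0.384 and 13.4 CPM. The melanopsin gene *Opn4* stood at 0.128 and 9.11 CPM, below the 10 CPM limit, and at 14.5 CPM at P0. *Tbr1*, a factor of other subtypes, stood at 0.320 and 2.56 CPM. Among the 3 lower factors was *Irx5*, at 245 and 94.4 CPM.

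Synaptic and receptor genes were also more often higher than lower at E16. Of 17 synaptic genes measured, 8 were higher and 2 lower at E16, and 1 of the lower genes, *Rims2*, split by gene list. The median log2 ratio was 0.96 in members and 0.88 in cells with under 2 markers, so other cells of the E16 library showed a like shift. *Vamp2*, the vesicle fusion protein gene, stood at 86.8 and 265 CPM and *Cplx1* (complexin) at 20.1 and 66.9 CPM. Of 11 transmitter receptor genes measured, 5 were higher and none lower, among them the nicotinic subunit gene *Chrnb3* at 2.24 and 33.9 CPM and the GABA-A subunit gene *Gabra2* at 5.95 and 24.1 CPM. For *Gabra2* the log2 ratio was 2.02 in members and 2.11 in cells with under 2 markers. The median of the receptor list was 0.77 and 0.97 in the same order. *Chrnb3* and *Gabra2*, under 10 CPM at E14, were measured only through E16, so nothing is read from the receptor count.

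Guidance genes differed in both directions. Of 11 ligands 4 were higher at E16 and none lower, led by *Sema3e* at 2.56 and 29.4 CPM and *Ntng1* (netrin-G1) at 29.6 and 92.7 CPM. The median log2 ratio of the ligands was 0.43 in members and 0.40 in cells with under 2 markers. *Sema3e*, under 10 CPM at E14, was measured only through E16, so nothing is read from the ligand count. Of 22 receptors 3 were higher and 5 lower, and 2 of the lower genes split by gene list. *Chl1*, an L1-family adhesion gene, stood at 7.68 and 28.3 CPM and the chemokine receptor gene *Cxcr4* at 32.5 and 6.55 CPM. *Robo2* at 164 and 147 CPM and *L1cam* at 139 and 163 CPM lay within 2-fold. The growth cone list had 2 higher and 1 lower of 23, with a median of -0.10.

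Promoters are shown for 3 genes higher at E16, picked after their values were seen because they represent a marker of the rule, a factor of crossing axons and the gene of the group with most UMIs. Each is the 250 bases before the start site in the RefSeq table (GRCm38.p6), 5′ to 3′ on the gene's strand, with capitals marking the E-box CAGCTG that proneural factors such as Atoh7 can bind.
Pou4f1 (chr14:104468000-104468249, minus strand): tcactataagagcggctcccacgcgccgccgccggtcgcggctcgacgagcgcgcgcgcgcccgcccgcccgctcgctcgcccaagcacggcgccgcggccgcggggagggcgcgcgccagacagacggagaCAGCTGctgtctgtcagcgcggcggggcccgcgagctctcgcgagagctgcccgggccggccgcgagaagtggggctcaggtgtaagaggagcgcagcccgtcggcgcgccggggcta
Isl2 (chr9:55540899-55541148, plus strand): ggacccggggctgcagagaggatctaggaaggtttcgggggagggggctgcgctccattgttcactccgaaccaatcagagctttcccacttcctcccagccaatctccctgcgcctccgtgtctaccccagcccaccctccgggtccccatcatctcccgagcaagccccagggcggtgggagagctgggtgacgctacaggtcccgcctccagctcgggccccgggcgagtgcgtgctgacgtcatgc
Snhg11 (chr2:158375463-158375712, plus strand): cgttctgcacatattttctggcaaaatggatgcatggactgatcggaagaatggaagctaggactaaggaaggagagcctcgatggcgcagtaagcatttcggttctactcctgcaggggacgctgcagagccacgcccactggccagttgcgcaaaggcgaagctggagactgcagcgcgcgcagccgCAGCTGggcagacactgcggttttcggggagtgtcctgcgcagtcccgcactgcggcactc

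The table matched 11 of the 25 leading genes, 3 of the 6 markers and 12 of the 15 genes highest at E16. Searched on both strands, CAGCTG was in 4271 of all 32851 promoters (13.0%), in the promoters of 3 of the 11 leading genes (*Myt1l*, *Resp18* and *Snhg11*), of 1 of the 3 markers (*Pou4f1*) and of 2 of the 12 genes higher at E16 (*Igf1* and *Snhg11*). The EBF motif (TCCC and GGGA with 2 bases between them) was in 0.779% and the POU4 motif TAATTAAT in 0.788% of all promoters, and neither was in a promoter of these genes. A match is a run of letters and no evidence of binding, and these windows leave out distal elements.

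Members differed among themselves. At E14 *Atoh7* was seen in 35.6% (33.7 to 37.6) of thinned members and in 35.7% of thinned cycling cells, a group in which this gene is active, so the share in members cannot be set against a background. *Pou4f2* was seen in 38.8% (35.4 to 42.2) of the 815 members with an *Atoh7* UMI and in 12.3% (10.7 to 14.1) of the 1473 without. *Pou4f1* was seen in 12.9% (10.7 to 15.4) and 19.7% (17.7 to 21.8). Both are markers of the rule, and members with *Atoh7* held less of other markers (*Sncg* at 1493 against 3839 CPM, *Rbpms* at 283 against 534 CPM), so these shares depend on how a cell met the rule and support nothing. Free *Atoh7* RNA may add UMIs to any cell, and its part was not tested.

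The genes named here for the E14 members with and without *Atoh7* were picked after the values were seen. *Gadd45a*, a cell cycle exit gene, stood at 190 CPM with *Atoh7* and 30.5 without, *Mfng*, a Notch modifier, at 84.7 and 9.16, and *Insm1*, a factor of neuronal precursors, at 120 and 28.9. *Dcc* stood at 237 and 50.9 CPM and *Isl1* at 1323 and 747 CPM. Other genes of young neurons went both ways. With *Atoh7*, *Dcx* (233 against 338 CPM) and *Tubb2b* (3244 against 4833 CPM) were lower. *Sox4* (1652 against 957 CPM), *Sox11* (1594 against 1249 CPM) and *Tubb3* (3963 against 3374 CPM) were higher. Members without *Atoh7* held more of *Mstn* (96.7 CPM against 11.7), *Lmo2* (123 against 20.9), *Irx3* (258 against 55.8), the neurotrophic receptor gene *Ret* (87.6 against 16.6) and *Gap43* (5255 against 2999). *Sfrp2* stood at 70.6 CPM with and 76.0 CPM without, so this progenitor gene did not separate the 2 sets.

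**Figure D4:**
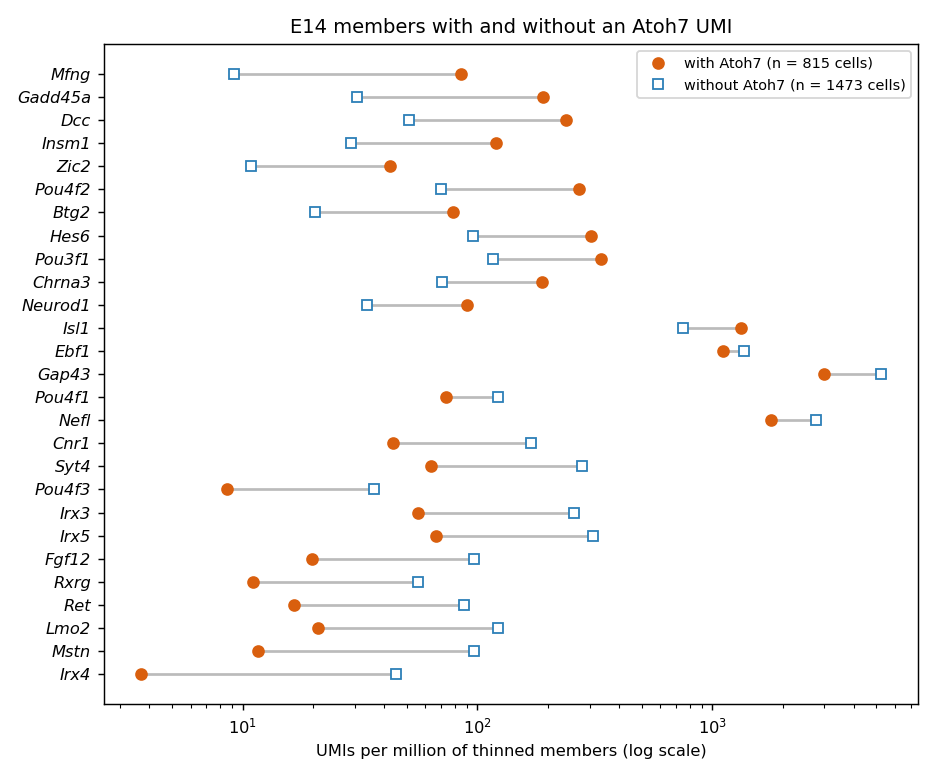
Level (CPM, log scale) of genes in thinned E14 members with an *Atoh7* UMI (n = 815) and without (n = 1473), from UMIs summed over the cells of each set in 1 library. *Mfng*, *Gadd45a*, *Dcc* and *Pou4f2* lie higher with *Atoh7*, and *Mstn*, *Lmo2* and *Irx4* higher without.

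Both *Pou4f1* and *Pou4f2* are markers of the rule, and a cell with 1 of them needs the other less to reach 3 markers, so their overlap within members is given as a description only. At E14, 63 of 2288 members held both, 1459 held neither, and *Pou4f1* was seen in 12.7% (9.88 to 15.9) of members with *Pou4f2* and 18.5% (16.8 to 20.4) of those without. At E16 the shares were 57.4% (48.1 to 66.3) and 62.5% (59.2 to 65.8), intervals that overlap. The 10 genes most like *Pou4f2*, by the smaller of the ratios at E14 and E16 of the share of members with and without it, were led by *Rpgrip1*, seen in 5.23% of members with *Pou4f2* and 2.90% of those without at E14, and in 13.1% and 7.80% at E16. Among them *Srrm4*, a neuronal splicing regulator gene, was seen in 28.2% and 17.7%, then 13.1% and 8.76%, and *Dach1*, a nuclear factor gene, in 27.6% and 18.8%, then 15.6% and 9.12%. These genes are the top of a ranking over all genes, and their ratios were small at this depth. *Pou4f3* was lower in members with *Pou4f2* in both libraries, at 6.04 against 32.1 CPM and 20.5 against 88.8 CPM.

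At E16 members with and without *Pou4f1* (591 and 364) held different subtype genes. *Isl2* stood at 156 CPM with *Pou4f1* and 56.3 without, *Foxp2* at 31.3 and 4.12, *Chrnb3* at 46.5 and 9.62, *Meis2*, a homeobox factor gene, at 98.1 and 45.3 and the calcium buffer gene *Calb2* (calretinin) at 453 and 220 CPM. *Eomes* stood at 25.4 CPM with and 130 without, *Igf1* at 54.1 and 232, *Lmo2* at 43.1 and 136 and *Irx3* at 35.5 and 106. Since *Pou4f1* is a marker of the rule, this division depends on how a cell met the rule. It was also picked after values had been seen, so these levels are a description only.

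The *Isl2* and *Eomes* members lay on opposite sides of this division, in which *Pou4f1* is itself a marker of the rule. *Isl2* was seen in 17.3% (14.9 to 19.8) of thinned members at E16 (2.13% of cycling cells), and of those 165 cells 80.6% (73.7 to 86.3) held *Pou4f1*, against 58.0% (54.4 to 61.4) of members without *Isl2*. *Eomes* was seen in 9.21% (7.46 to 11.2) of members (1.71% of cycling cells), and of those 88 cells 27.3% (18.3 to 37.8) held *Pou4f1*, against 65.4% (62.1 to 68.6) of members without *Eomes*. The same comparison for *Eomes* at E14 gave 8.06% (2.67 to 17.8) of 62 cells and 17.5% (16.0 to 19.2), intervals that overlap.

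Members with *Eomes* at E16 held 631 CPM of *Igf1* and those without 70.4 CPM, from 111 and 122 UMIs, and at E14 177 and 14.2 CPM, from 22 and 63 UMIs. *Tac1*, the substance P gene, stood at 73.9 and 20.8 CPM at E16 and *Dscam*, an adhesion gene of dendrite spacing, at 90.9 and 28.3 CPM. Lower with *Eomes* were *Barhl2*, a homeobox gene, at 17.0 against 101 CPM, *Isl2* at 22.7 against 127 CPM and *Meis2* at 11.4 against 84.8 CPM, and *Tfap2d* was not seen in the 88 cells and stood at 62.9 CPM in the rest. Members with *Isl2* held 6.06 CPM of *Lmo2*, from 2 UMIs, and those without 93.7 CPM, and 15.2 against 72.2 CPM of *Irx3*.

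**Figure D5:**
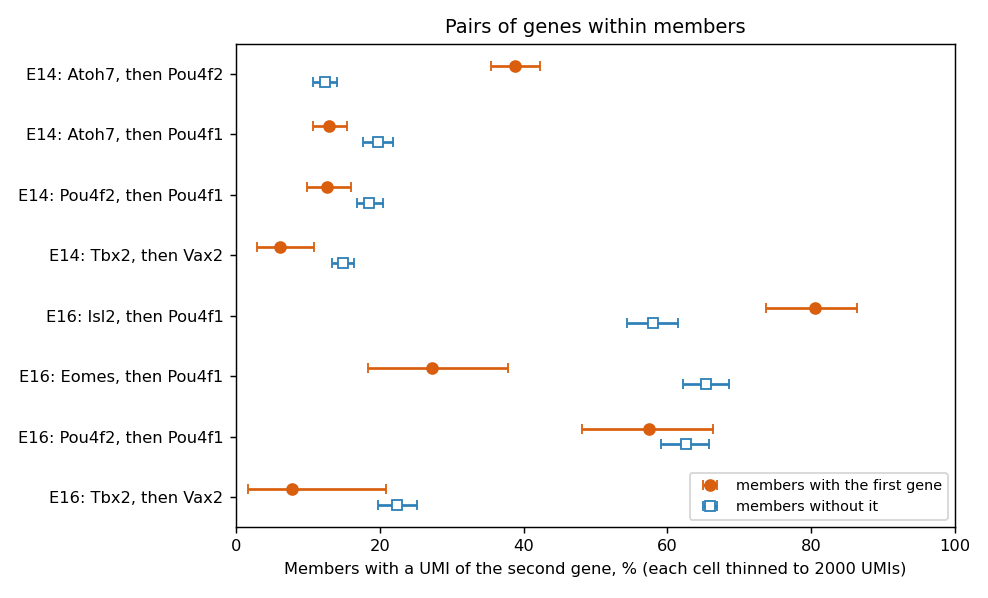
Share of thinned members (percent, exact 95% Clopper-Pearson intervals) with a UMI of the second gene, among members with and without the first, for gene pairs at E14 and E16. *Pou4f2*, a marker of the rule, is seen in 38.8% of E14 members with *Atoh7* and 12.3% without, and at E16 *Pou4f1*, also a marker, is more frequent with *Isl2* (80.6% against 58.0%) and less with *Eomes* (27.3% against 65.4%).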

How the data were processed

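The matrices the authors deposited hold unnormalized UMI counts (genes by cell barcodes) made with Cell Ranger, and the labels name mm10. Version 6.1.2 stands in the headers of 4 libraries, E14 among them, and no version in those of E16 and P3 replicate 2. Sequencing and library chemistry of single libraries are not given in the sources used here. The gene lists hold 32285 (newer) and 27998 (older) identifiers, and 1227 of the 27040 shared ones carry different names.

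Cells were kept at 300 to 6000 genes and at most 15% mitochondrial UMIs, where the study kept cells under 4000 genes. Counts were summed over the cells of a group and divided to CPM over the shared identifiers. A gene was measured at 10 CPM or more in either group compared (in each library, for members against other cells), and called at 2-fold in both libraries or between ages. For a gene with no UMI in 1 group, 3 counts were set in its place in ratios and figures. Members with 1 UMI of a gene were counted after thinning each cell to 2000 UMIs, which left out 105 members at E14 and none at E16. Doublets were called with 2 simulated doublets per cell, 30 neighbours and a rate of 0.8% per 1000 cells, and used only in an alternative. No model or p-value was computed, since cells of 1 library are not replicates.

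The members and the gene lists were chosen with earlier results of these data known. The text names the rule genes, list genes, the 25 leading genes at 50 CPM or more, the 15 genes highest and 15 lowest at E16 and the 10 genes most like *Pou4f2*. Of the 15 each way, those that split by gene list were replaced by the next in order after their values were seen, and the gene pairs, splits and promoters were picked then as well. The sums were tested on simulated data with known changes. Software was Python 3.11.15 with numpy 2.4.6, scipy 1.17.1, pandas 2.3.3, scikit-learn 1.9.0 and matplotlib 3.10.9. P0, P3 and P6 cells entered only as side values. Some of the genes that the naming rule takes are not reported here.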

Additional observations from a re-analysis of the deposited data

How the results depend on the processing

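No paired analysis was possible because each embryonic age has 1 library and no result comes from a test. The share of members at E14 (15.4%) was 16.2% with an upper limit of 4000 genes, 13.4% with at least 4 markers, 18.3% with at least 2, 17.9% after thinning to 2000 UMIs, 23.4% with no exclusion, 16.6% without called doublets and 21.0% among cells at or above the lowest E16 UMI count, a setting added after seeing the data. At E16 (35.2%) it was 45.0% with 4000 genes, 38.5% after thinning and 59.2% with no exclusion, and it moved by less than its interval with the other marker numbers and without doublets. With no filter on low levels, 2928 genes were higher and 1853 lower in members, and 3566 were higher and 1798 lower at E16. Leaving out genes that differed between the P3 libraries left 363 higher and 275 lower at E16, and leaving out genes that split by gene list left 548 lower; both were added after seeing the data, and both remove genes by construction. In CPM taken without mitochondrial, ribosomal and haemoglobin genes, 51.4% of the genes that passed 2-fold between ages were higher at E16 (823 higher, 779 lower), against 42.2%, and the median over genes shifted by 0.08 on the log2 scale. *Pou4f1* was seen in 30.4% and 74.97% of members (E14, E16) when thinned to 4000 UMIs and 39.2% and 79.8% unthinned, and *Pou4f2* in 33.9% and 24.2%, then 45.9% and 34.5%. Of 49 alternative values of shares and counts 24 stayed within their limits and 25 moved. The larger of the 2 directions between ages was the lower one in the main result and the higher one in that scaling, with no filter and without the P3-differing genes. Shares and counts could only be labelled as within their limits or moved. All 150 values of the leading genes and 216 of the age genes and markers kept their label. For genes at 2-fold or more in the main result, this means 2-fold or more in the same direction. For markers under 2-fold, such as *Rbpms*, it means only that the ratio stayed under 2-fold, and their direction was not followed. The leading and age genes were picked for large ratios in these same data, so nothing is read from their keeping it. A pool of animals in 1 library per age, the E16 floor of 4566 UMIs and the older gene list limit every comparison between ages, and thinned shares near those of cycling cells carry no information.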

Other observations

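Genes that map position across the retina were present in members at both ages. *Vax2*, a ventral factor, stood at 84.1 CPM in members at E14 and 135 CPM at E16, and *Hmx1*, a nasal factor, at 141 and 37.5 CPM. Of 6 dorsal genes measured 3 were 2-fold or more lower in members than in other kept cells of both libraries, of 4 ventral genes 1, of 5 temporal genes 1 and of 3 nasal genes none. Over all genes 9.49% were lower, and nothing is read from counts this small. After thinning, the dorsal factor *Tbx2* and *Vax2* shared few cells, with *Vax2* in 6.06% (2.94 to 10.9) of 165 members with *Tbx2* and 14.8% (13.3 to 16.4) of those without at E14, and in 7.69% (1.62 to 20.9) of 39 and 22.4% (19.7 to 25.2) at E16. The E16 intervals for *Tbx2* overlap. *Tbx5*, a second dorsal factor, gave 6.42% (2.62 to 12.8) and 14.5% (13.1 to 16.1) at E14, but 20% of 5 cells and 21.8% at E16. *Tbx3*, another dorsal factor, gave 3.33% (0.41 to 11.5) of 60 cells and 14.5% (13.0 to 16.0) at E14. At E16 *Tbx3* gave 37.5% (8.52 to 75.5) of 8 cells and 21.6%, so the pattern was not repeated there. Of the genes listed for uncrossed axons, *Zic2*, which sets that route, was lower in members than in other cells, at 19.9 against 45.5 CPM and 7.67 against 16.4 CPM. *Isl2* was seen in 3.09% (0.64 to 8.77) of the 97 thinned E14 members with *Zic2* and 2.88% (2.22 to 3.66) of those without, so no difference was detectable at this depth. Of the 9 measured genes listed for crossed axons 4 were higher and 1 lower in members, and of the 5 for uncrossed axons 1 was higher (*Syt13*) and 2 lower. Over all genes 12.1% were higher and 9.49% lower. The lists are small and the contrast is the one the rule used, so nothing is read from these counts.

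Of 11 cell death genes measured, 1 was higher in members of both libraries and 2 were lower, beside 12.1% higher and 9.49% lower over all genes, and counts this small set the list apart in neither direction. The higher gene was *Bbc3* (Puma), a pro-apoptotic BH3 gene, at 77.8 against 22.1 CPM at E14 and 110 against 25.8 CPM at E16. *Bcl2*, a pro-survival gene, stood at 10.4 against 52.9 and 16.1 against 41.3 CPM, and *Bcl2l11* (Bim), also pro-apoptotic, at 9.41 against 27.3 and 6.87 against 16.8 CPM. *Hrk*, another BH3 gene, was under the 10 CPM limit at 9.48 against 1.04 and 9.27 against 1.71 CPM. Among survival receptors 4 of 6 measured were higher. *Ntrk2* (TrkB) stood at 54.9 against 17.0 and 34.2 against 8.56 CPM, and *Ngfr* (p75) at 37.6 against 7.59 and 70.8 against 21.4 CPM. Each was under 10 CPM in other cells of 1 library and measured there only through members, so nothing is read from the count. *Hk1*, the hexokinase of neurons, was the 1 glycolysis gene of 13 that was higher, at 46.7 against 15.9 and 43.6 against 20.9 CPM, and the glucose transporter gene *Slc2a1* the 1 lower, at 40.8 against 256 and 20.6 against 97.4 CPM, again shares near those over all genes.

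Blood RNA differed between the libraries. The 6 globin genes summed to 364 CPM in members and 626 CPM in other kept cells at E14, and to 3.67 and 3.54 CPM at E16. Of 6 immediate early genes measured, 2 were lower in members of both libraries and none higher, beside 9.49% and 12.1% over all genes. Counts this small set the list apart in neither direction. *Fos* stood at 0.256 CPM in members at E14 and 3.67 CPM at E16, against 5.70 and 14.9 CPM in other kept cells.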
